A study of Mus musculus with 24 samples.

Results

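The genes described here belong to the amino acid transporter families Slc1, Slc3, Slc6, Slc7, Slc36, Slc38 and Slc43. They were taken as every probe, controls aside, whose gene name starts with the stem of one of these families followed by a digit. The rule found 120 of the 56605 probes on the array and 66 of its 37005 genes, counting features without a symbol as genes. Of the 66 names, 4 (Slc6a19os, Slc7a6os, Slc36a1os and Slc36a3os) are transcripts of the opposite strand and not transporters. The rule also takes in relatives that carry other solutes: Slc6a2, Slc6a3 and Slc6a4 carry monoamines and Slc6a8 carries creatine.

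RNA from 24 pools of frozen expanded mouse blastocysts, the last embryo stage before implantation, was hybridised to one-colour microarrays. The pools carry the codes HC1, HC2, HC3, HC4, HC5 and HC6, with 4 pools per code, and each pool held 15 blastocysts or, in HC6, 20. Every pool shares the stage and the freezing. The series title names bisphenol A, a plastic monomer with estrogenic activity, and membrane estrogen receptor activation, but the labels tie no agent, dose, strain or age to a code and name no control. The codes were therefore compared with one another, each against the mean of the other 5, and in HC6 the code and the pool size cannot be told apart. No label says that pools of a code came from separate animals, so p-values measure the spread between pools.

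Between 38.6% and 49.7% of spots on an array were well above background, and each array's processed signal had a 75th percentile over probes between 47.3 and 128. A level below is the log2 processed signal of a gene's brightest probe minus that percentile of its array, so 0 is the percentile itself, and the levels of different probes cannot be ranked. In pooled embryos, fewer cells of a type and less RNA per cell cannot be told apart. All 9 trophectoderm, 6 inner cell mass and 5 primitive endoderm markers were detected on all 24 arrays, while of 9 cumulus and granulosa markers Foxl2 was detected on 24, Has2 on 9, Cyp19a1, Ptx3 and Lhcgr on 1 each and Amh, Fshr, Tnfaip6 and Inha on none. HC6 replicate 3 stood apart. Its score over 2-cell stage markers, the mean deviation of the list's genes from the 24-pool mean, was 5.07, against at most 2.23 in any other pool, and its trophectoderm score of -0.41 was the lowest of the 24. The 2-cell score averages 5 tested genes. Zfp352 was detected on 24 arrays, but Zscan4a, Zscan4b, Zscan4f and Usp17le on 4 each, so most of their values were near background.

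Amino acid transporters set which amino acids a blastocyst can take from the fluid of the uterus. Arginine and leucine uptake is known to feed growth signalling through the kinase complex mTORC1 in mouse trophectoderm before implantation, and glycine and related solutes serve early mouse embryos as osmolytes. Light chains of the Slc7 family reach the cell surface only when joined to a heavy chain, Slc3a2 or Slc3a1. When amino acids are short, the transcription factor ATF4 raises the asparagine synthetase gene Asns and several transporter genes through sites that share the core TGATGNAA.

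Some of the results turn on a single probe or on letters near a gene's start, so those sequences are printed first. The only Slc7a5 probe, at chr8:124430996-124431055 on the minus strand, and the less bright of the Slc6a8 probes, at chrX:70925849-70925908 on the plus strand, are shown whole with their Slc38a1 counterpart, whose 60 bases map across 1292 bases of the genome on the minus strand at chr15:96416032-96417323 and so cross a splice junction (mm9 positions of the array annotation):
Slc7a5 probe: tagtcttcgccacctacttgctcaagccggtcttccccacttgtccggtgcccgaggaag
Slc6a8 probe: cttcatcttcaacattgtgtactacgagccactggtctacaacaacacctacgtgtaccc
Slc38a1 junction probe: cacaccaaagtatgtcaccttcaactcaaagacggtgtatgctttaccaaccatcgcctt

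Other probes hold runs of letters that recur elsewhere. For each probe of the families, runs of 20 bases were looked for, on both strands, in the promoter windows of other genes and in the probes of other genes. A run of the Slc3a2 probe at chr19:8781855-8781914 was found in the promoters of 50 other genes and in probes of 11. The Slc1a4 probe in use shared a run with the promoters of 11 genes and the probes of 6, and the Slc38a9 probe in use with 2 and 1. The only Slc6a9 probe shared a run with a probe of 1 other gene and with no promoter. A stretch of 30 bases of each follows, with the letters covered by a shared run in capitals (mm9 chr19:8781885-8781914 minus, chr11:20202626-20202655 minus and chr13:113495110-113495139 plus):
Slc3a2 repeat-holding probe: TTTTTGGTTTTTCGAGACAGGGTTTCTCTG
Slc1a4 probe: atgtatcaAGTGTGTGTGTGTATGTGTGTG
Slc38a9 probe: tctcTGTGAGTTCCAGGACAGCCAAAGCTa

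The motif TGATGNAA was searched on both strands in RefSeq promoter windows of GRCm38.p6, which run from 250 bases before a gene's start to 50 after it. It stood in 3.97% of the 32851 windows and in 4.51% of the 27025 genes with a window. Among the family members with a window, 3 of 48 held it, Slc7a11, Slc1a4 and Slc7a7, and Asns held it too. The stretches below run from 100 bases (150 for Slc7a7) before the start to 10 after it, on the minus strand, with the motif in capitals. They lie at chr6:7693200-7693309 for Asns, chr14:54417935-54418094 for Slc7a7, chr11:20332704-20332813 for Slc1a4 and chr3:50443604-50443713 for Slc7a11:
Asns: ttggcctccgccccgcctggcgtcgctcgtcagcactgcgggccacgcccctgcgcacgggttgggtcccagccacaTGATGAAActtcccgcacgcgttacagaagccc
Slc7a7: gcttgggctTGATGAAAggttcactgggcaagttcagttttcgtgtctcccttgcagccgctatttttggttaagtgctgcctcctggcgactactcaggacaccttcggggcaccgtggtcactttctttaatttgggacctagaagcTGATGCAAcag
Slc1a4: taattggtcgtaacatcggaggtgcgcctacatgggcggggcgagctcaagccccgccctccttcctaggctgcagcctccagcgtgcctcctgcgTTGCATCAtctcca
Slc7a11: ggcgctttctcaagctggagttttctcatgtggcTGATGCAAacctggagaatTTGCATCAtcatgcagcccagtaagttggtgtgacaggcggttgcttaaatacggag
A match is a description of the letters and not evidence of a bound site. The share in the families was 6.25%, from 3 genes.

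Of the 66 genes, 38 were measurable, with a probe well above background on at least 4 arrays, and 26 had a probe well above background on all 24. No probe of 12 genes was well above background on any array. The Slc38 family was the most widely measured among the larger families, with 8 of 11 genes tested and 7 detected on every array. In the Slc6 family 10 of 21 genes were tested and 6 were never detected. The Slc7 family had 9 of 16 tested, Slc1 had 5 of 7, Slc43 had 3 of 3 and Slc36 had 2 of 6.

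**Figure D1:**
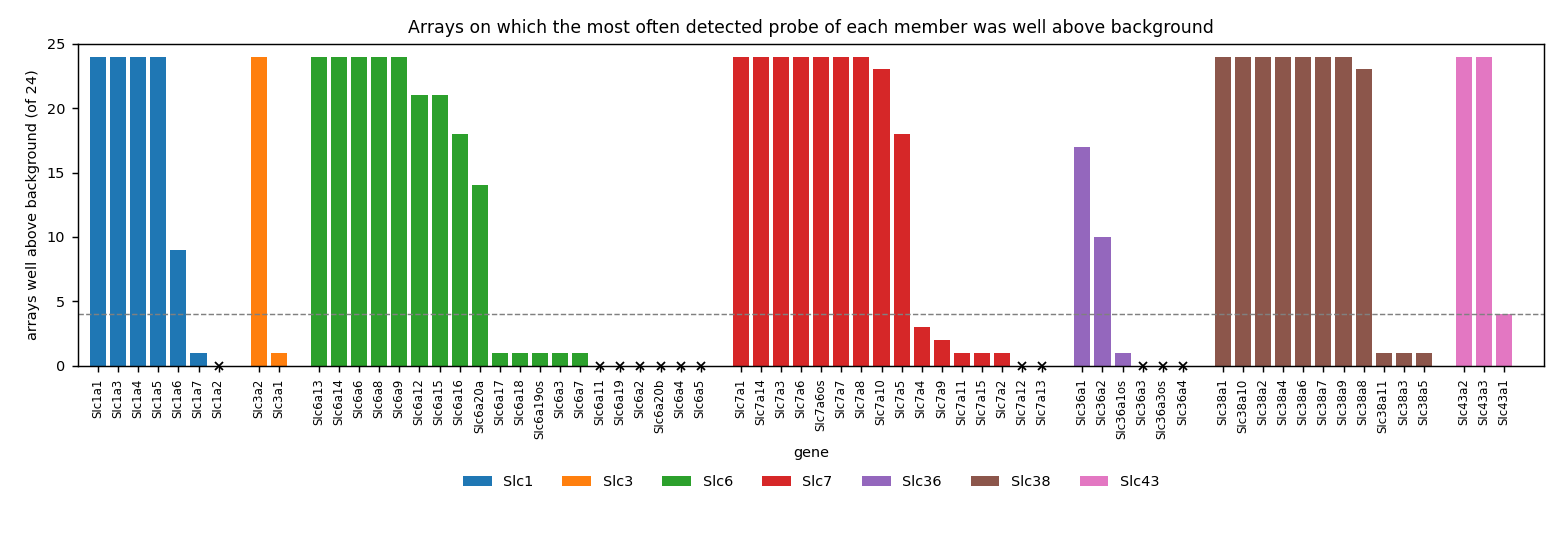
Number of arrays, of 24, on which the most often detected probe of each of 65 members was well above background; bars are coloured by family, crosses mark 0, and the dashed line marks the 4 arrays required for testing. The members split into 26 at 24 arrays and 28 at 3 arrays or fewer, with 11 between.

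The heavy chain genes differed in detection. Slc3a2, the heavy chain of the 4F2 antigen (CD98), was detected on all 24 arrays by each of its 3 probes, 1 of which is the repeat-holding probe above. Slc3a1, the heavy chain of kidney and gut cystine transport, was detected on 1 array. Its partner Slc7a9 was detected on 2 at most. Of the light chains that join Slc3a2, Slc7a6, Slc7a7 and Slc7a8 were detected on all 24 arrays, Slc7a10 on 23 and Slc7a5 on 18. These counts are those of each gene's most often detected probe. The second probes of Slc7a8 and Slc7a10 were detected on 10 and 1 arrays. Slc7a11, the cystine and glutamate exchanger, had 4 probes, and none was well above background on more than 1 array.

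Among the carriers of arginine and lysine, Slc7a1 and Slc7a3 were detected on all 24 arrays and Slc7a2 on 1. Slc7a14, a relative found in lysosomes, was detected on 24 by 1 of its 2 probes and on 0 by the other. Slc7a4 was detected on 3. Slc7a12, Slc7a13 and Slc7a15 were detected on 0, 0 and 1 arrays. The opposite-strand transcript Slc7a6os was detected on 24.

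The glutamate carriers Slc1a1 and Slc1a3 were detected on all 24 arrays, Slc1a6 on 9, Slc1a7 on 1 and Slc1a2 on 0. The neutral carriers of the same family, Slc1a4 (alanine, serine, cysteine) and Slc1a5 (glutamine), were both detected on 24. In the Slc6 family, the glycine carrier Slc6a9, the taurine carrier Slc6a6, the creatine carrier Slc6a8, the GABA carrier Slc6a13 and Slc6a14, which carries neutral and cationic amino acids, were detected on 24. Slc6a12 (betaine) and Slc6a15 (branched-chain amino acids and proline) were detected on 21, the orphan Slc6a16 on 18 and Slc6a20a (proline and betaine) on 14. Slc6a3, Slc6a7, Slc6a17, Slc6a18 and Slc6a19os reached 1 array, and Slc6a2, Slc6a4, Slc6a5, Slc6a11, Slc6a19 and Slc6a20b reached none.

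Slc38a1, Slc38a2 and Slc38a4, the sodium-coupled carriers of small neutral amino acids known as system A, were detected on all 24 arrays. So were Slc38a6, Slc38a10, the lysosomal glutamine carrier Slc38a7 and the lysosomal arginine sensor Slc38a9, and Slc38a8 was detected on 23. The system N carriers Slc38a3 and Slc38a5 were detected on 1 array, as was Slc38a11. The branched-chain amino acid carrier Slc43a2 and its relative Slc43a3 were detected on 24 and Slc43a1 on 4. Of the proton-coupled Slc36 carriers, Slc36a1 was detected on 17 arrays, Slc36a2 on 10, Slc36a3 and Slc36a4 on 0, Slc36a1os on 1 and Slc36a3os on 0.

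No difference among the 6 codes passed the test for any transporter. The moderated F-test called 0 of the 38 members after adjustment over all genes, against a background of 0 of 18397 genes (0%). Before adjustment, 385 genes (2.09%) had a p under 0.05, and 1 of them, Slc7a10, was a member. Each code against the other 5, adjusted, called 0 members and 0 genes, and the 15 pairs of codes called 0 of 570 member and pair combinations, against 0 of 275955 in all. Before adjustment, 10 of the member combinations (1.75%) had a p under 0.05, against 2.84% of all combinations. No member had all 4 pools of a code above, or all below, the other 20, which 0.0109% and 0.0163% of all genes did in some code.

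Before adjustment, at most 1 of the 38 members had a p under 0.05 in any direction of a code. In HC1 the count was 0 members higher and 1 lower (Slc7a10), against 1.44% and 1.77% of all genes. In HC2 it was 1 higher (Slc36a2) and 0 lower, against 1.35% and 0.886%. In HC3, 1 was higher (Slc7a10) and 0 lower, against 1.02% and 0.554%. HC4 had 1 higher (Slc43a1) and 0 lower, against 1.25% and 0.625%, and HC5 had 1 higher (Slc6a12) and 0 lower, against 2.66% and 2.82%. No member (0) passed that mark either way in HC6, against 1.54% of genes higher and 1.43% lower. A single member of the 38 is 2.63%.

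The intervals show which differences in signal the arrays could have missed. They are for single members without adjustment, and their share over all genes was not computed. For members near background, such as Slc6a20a on 14 arrays, they do not bound the difference in RNA. The standard error of a member's difference had a median of 0.185 on the log2 scale. In each code, between 32 and 34 of the 38 members had a 95% interval that lay wholly within a 2-fold change either way. The direction of the members was mixed: in HC1, 16 were higher and 22 lower than in the other codes with a median difference of -0.06, and in HC6 13 were higher and 25 lower with a median of -0.03. In HC4, 26 were higher and 12 lower with a median of 0.06. In HC2, HC3 and HC5, 22, 18 and 20 members were higher and the medians were 0.02, -0.01 and 0.00. The share of all genes that was higher was 65.1% in HC4, 47.8% in HC1 and 48.2% in HC6. It was 41.8%, 49.9% and 47.7% for HC2, HC3 and HC5. The all-gene median was 0.05 in HC4 and between -0.02 and 0.00 in the other codes.

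**Figure D2:**
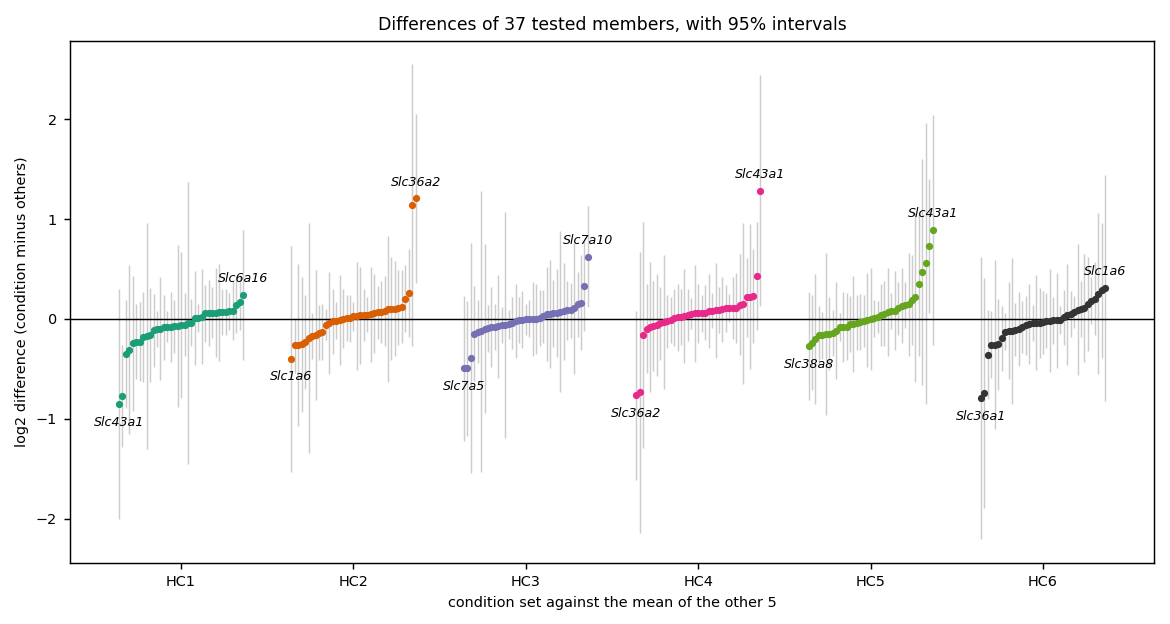
Log2 difference of each of 37 tested members in a code minus the mean of the other 5 codes (points, ordered by size within a code), with 95% intervals from the limma fit (grey); the members at both ends are named. Most points lie near 0, and the widest intervals belong to Slc36a1, Slc43a1 and Slc1a6, detected on 17, 4 and 9 arrays.

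Slc7a10, a light chain that exchanges small neutral amino acids, had the smallest p of the members. In HC1 it was at -1.23, -1.33, -2.53 and -1.02, against a median of -0.83 in the other 20 pools, which ran from -1.62 to 0.09. All 4 HC1 pools were below the mean of the others, but 3 of them lay within the others' range. The difference was -0.77 (95% interval -1.28 to -0.26, adjusted p = 0.999833). HC1 replicate 3 was the lowest of the 24 pools, and without it the difference was -0.44. The other Slc7a10 probe was well above background on 1 array, in HC6, so the gene's values rest on a single probe.

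In HC3, Slc7a10 was at -0.14, -0.39, -0.66 and -0.28, against a median of -0.93 in the other 20 pools. All 4 HC3 values were above the mean of the others and none lay outside their range, because HC6 replicate 1 reached 0.09. The difference was 0.62 (95% interval 0.12 to 1.13, adjusted p = 0.999862). Between the 2 codes directly, HC1 minus HC3 was -1.16 (95% interval -1.82 to -0.51), the smallest p of all member pairs, with an adjusted p of 0.999992.

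The largest differences of a code from the others were in Slc43a1 and Slc36a2, whose probes were well above background on 4 and 10 arrays. Slc36a2, a proton-coupled carrier of glycine and proline, was at -3.13, -0.58, -0.71 and -0.51 in HC2, against a median of -2.56 in the other 20 pools. HC2 replicate 1 thus lay near the bottom of all pools and the other 3 near the top, where HC3 replicate 4, at -0.59, was the only pool of another code. The difference was 1.21 (95% interval 0.36 to 2.05, adjusted p = 0.999982). The probe exceeded background on 3 of the HC2 arrays, against 7 of the 20 arrays of other codes. Without HC2 replicate 1 the difference was 1.84. Of the gene's other 2 probes, one was well above background on 0 arrays and the other on 2, neither of them in HC2. In HC4 the same probe was at -2.92, -2.40, -2.89 and -3.29, a difference of -0.76 (adjusted p = 0.998205), with 1 of the 4 arrays well above background. HC2 minus HC4 was 1.64 (adjusted p = 0.999992).

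Slc43a1, a carrier of branched-chain amino acids, was detected on 4 arrays, 2 of HC4 and 1 each of HC5 and HC6, the fewest that the filter allows. HC4 held -1.73, -2.82, -0.48 and -3.05, against a median of -3.48 in the other 20 pools, and the highest single value, 0.09, was in HC5 replicate 3. The difference in HC4 was 1.29 (95% interval 0.13 to 2.44, adjusted p = 0.998205), and without HC4 replicate 3 it was 0.77. HC1, where the probe was not well above background on any array, averaged -3.80 ± 0.51, against -2.02 ± 1.18 in HC4 (SD, n = 4 each). HC1 minus HC4 was -1.78 (adjusted p = 0.999992), and the mean of the 4 HC4 pools was 1.38-fold above a bound for HC1. That bound takes, on each HC1 array, the higher of the probe's own value and the lowest signal well above background. The excess rested on HC4 replicate 3: the other 3 HC4 pools averaged -2.53, below the bound of -2.48. It therefore sets no lower limit on the difference between the codes. A second Slc43a1 probe did not share the high pools: in HC4 replicate 3 it gave -5.31, its lowest of the 24, and in HC5 replicate 3 it gave -3.65.

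Slc6a12, which carries betaine and GABA, was at -1.17, -1.93, -0.98 and -0.88 in HC5, against a median of -1.95 in the other 20 pools, which ran from -3.35 to -0.82. The 4 values were above the mean of the others and within their range. The difference was 0.73 (95% interval 0.06 to 1.41), and its adjusted p of 0.874136 was the smallest of any member in these comparisons. Slc43a1 and Slc6a6 in HC5 shared that adjusted p, so it does not single out Slc6a12. Within slides 1, 2 and 3, which held 1, 1 and 2 HC5 pools, it was 0.92, -0.05 and 1.02. In HC3 the gene was at -2.81, -1.34, -2.68 and -2.21, a difference of -0.49 (adjusted p = 0.999862), which was -0.31 without HC3 replicate 1 and -0.80 without HC3 replicate 2.

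The remaining differences chosen by rank were smaller. Slc6a6, which imports taurine, was at 2.46, 2.86, 2.86 and 2.79 in HC6, against a median of 2.59 in the other 20 pools, a difference of 0.18 (adjusted p = 0.999023), with the sign reversed within slide 1 (-0.13) and 0.28 without HC6 replicate 1. In HC5 it was at 2.42, 2.61, 2.72 and 2.07, a difference of -0.17 (adjusted p = 0.874136), which was 0.06 within slide 2. HC5 replicate 4 was the lowest of these, and without it the difference was -0.04, while without HC5 replicate 3 it was -0.25. A Slc6a6 probe detected on 17 arrays correlated with the one in use at r = -0.07. Slc38a6 was at 0.72, 0.77, 0.76 and 0.63 in HC2, the tightest code for it, against a median of 0.99 in the other pools, a difference of -0.26 (adjusted p = 0.999982). Other Slc38a6 probes, detected on 24 and 23 arrays, correlated with the one in use at r = -0.04 and 0.22. Slc7a14 was at -1.11, -1.52, -2.24 and -1.78 in HC6, a difference of -0.36 (adjusted p = 0.999023). HC6 replicate 3 held its lowest value, and without it the difference was -0.17, without HC6 replicate 1 -0.54, and within slide 1 0.22. The other Slc7a14 probe was well above background on 0 arrays.

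**Figure D3:**
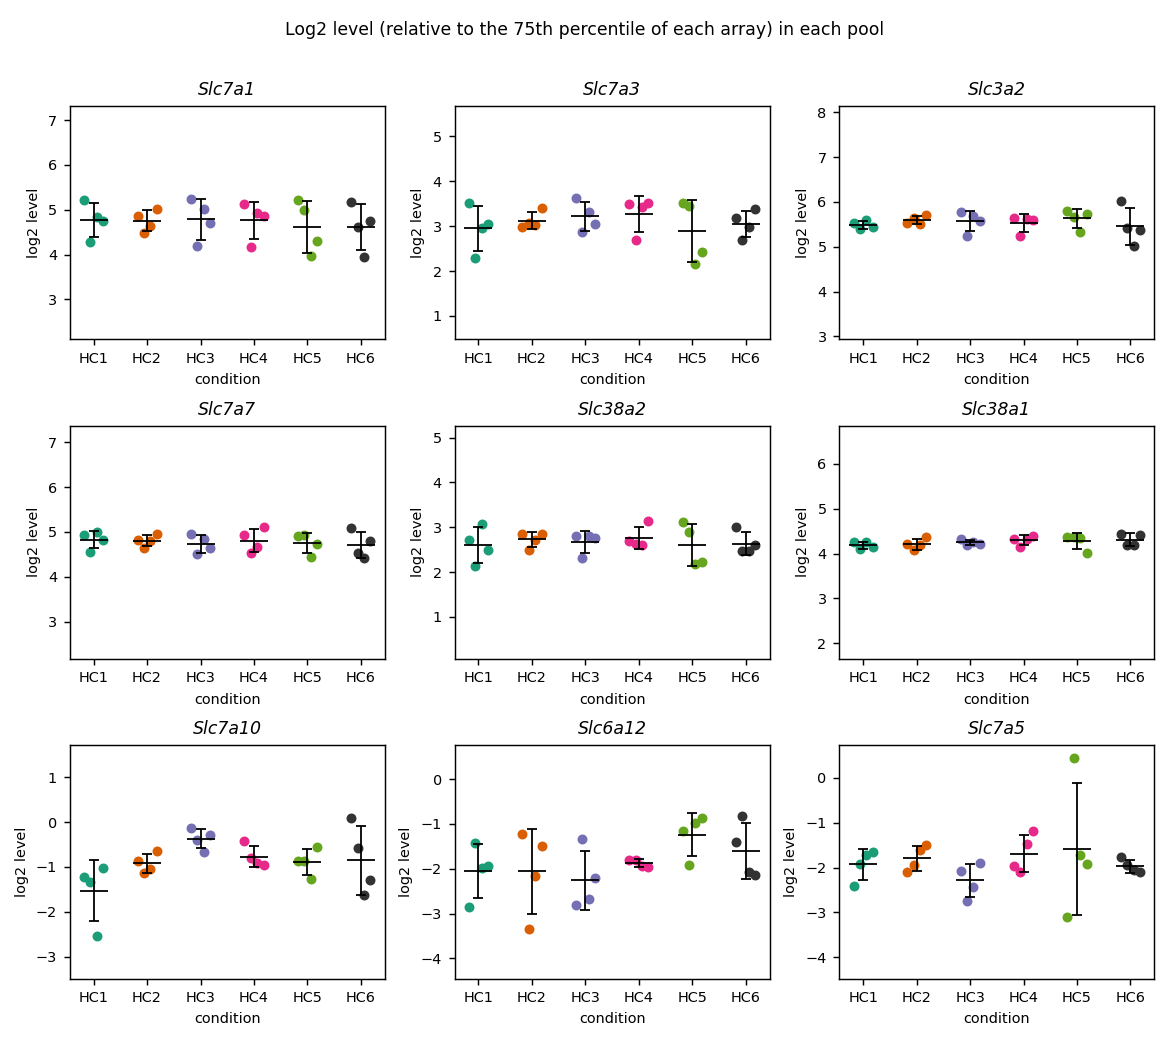
Log2 level of 9 members in each of the 24 pools by code, with the mean and SD of each code (bars, n = 4 pools); every panel spans 5.2 log2 units. Pools of a code scatter as widely as the codes do, and Slc7a10 in HC1 and Slc7a5 in HC5 each hold 1 pool far from the rest.

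Several members were steady over all 24 pools. Slc38a1 ran from 4.00 to 4.44, a 1.36-fold range, with an SD of 0.12, which was below that of all but 4.00% of genes. Slc38a10 (SD 0.14), Slc38a4 (0.14) and Slc7a6 (0.19) varied little more, and Slc7a6os had the smallest SD, 0.10. Other probes of these genes were less steady. The less bright Slc38a10 probe had an SD of 0.55 and correlated with the brighter one at r = -0.10 over 24 pools, and the splice junction probe of Slc38a1 had an SD of 1.07 with r = 0.55. The other 2 Slc38a1 probes had SDs of 0.15 and 0.36, with r = 0.61 and 0.08. The median SD of the 38 members was 0.33, against 0.27 over all genes.

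Some of the widest spreads were in Slc36a1, Slc1a6 and Slc6a15. Slc36a1, a lysosomal and surface carrier of small amino acids, ran from -3.09 to 2.18. HC2 replicate 3, at 2.18, and HC5 replicate 1, at 1.53, stood far above the median of -2.09, while the second Slc36a1 probe gave -3.06 and -3.42 there and was not well above background. Slc1a6 ran from -4.71 to -1.54 and was detected on 9 arrays. Slc6a15 ran from -3.49 in HC1 replicate 2 to -0.07 in HC6 replicate 2.

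Slc7a5, the leucine carrier known as LAT1, had the single probe printed above. It was at -3.10, 0.43, -1.72 and -1.93 in HC5, so both extremes among the 24 pools were in that code. In the other codes the means lay between -2.29 ± 0.37 in HC3 and -1.69 ± 0.42 in HC4 (SD, n = 4 each). Without a second probe, whether HC5 replicate 2 carried more Slc7a5 RNA cannot be checked within the array.

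No difference among the codes passed the F-test for the remaining members fixed for their roles. Slc1a1 ran from 3.07 to 4.18 over the pools and its code means from 3.49 to 3.77. Slc1a5 ran from 1.04 to 2.53 with code means of 1.82 to 2.03. Slc6a8 ran from 6.40 to 7.23, and its code means from 6.74 to 6.93. For Slc38a9, which passes lysosomal arginine levels to mTORC1, the code means ran from 5.96 to 6.19, but its probes disagreed: over the 21 pools with a value for the second probe, they correlated at r = -0.58, and the probe in use holds the shared run printed above.

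While no difference between codes passed the test, pools of the same code differed, and many transporters varied over them together with Asns. Asns itself ran from 6.16 in HC6 replicate 3 to 7.08 in HC1 replicate 1, a 1.89-fold range, and its code means lay between 6.66 and 6.79, so the range was among pools of the same code. Slc7a1, the main arginine carrier, had the closest relation: r = 0.92 and rho = 0.89 over 24 pools (adjusted p = 7e-05 for r, from 100000 permutations, where the smallest unadjusted p they can give is 1e-05). It was 0.98, 0.91 and 0.88 within slides 1, 2 and 3, 0.88 without the 2 pools farthest in Asns, 0.90 without HC6 replicate 3, and 0.93 after the code means were removed. No other tested gene among 18396 had a higher r with Asns.

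Part of the range in Asns went with the replicate number. Replicate 1 was higher in Asns than replicate 2 and than replicate 3 in 6 of 6 codes, and than replicate 4 in 4 of 6. Asns averaged 6.92 ± 0.14 in the pools numbered 1, 6.60 ± 0.18 in those numbered 2, 6.60 ± 0.30 in those numbered 3 and 6.75 ± 0.22 in those numbered 4 (SD, n = 6 each). Slc7a1 was also higher in replicate 1 than in replicate 2 and than in replicate 3 of all 6 codes. All the pools numbered 1 were on slide 1, so number and slide overlap. With the mean of each replicate number removed, the r of Slc7a1 with Asns was 0.90 (adjusted p = 0.00014, from permutations within replicate numbers, where the unadjusted p of 1e-05 is the smallest they can give), the second highest of 18396 genes, after Lars.

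Slc7a1 was lowest in HC6 replicate 3, at 3.95, and HC5 replicate 3, at 3.97, which were also the 2 pools lowest in Asns. It was highest in HC3 replicate 1 (5.23), HC1 replicate 1 (5.22) and HC5 replicate 1 (5.21), a 2.43-fold range, and its code means lay between 4.62 and 4.78. HC5 thus held pools at both ends. A difference of 1 log2 unit in Asns went with 1.49 units in Slc7a1.

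The relation with Asns was computed for 8 members with a known or proposed link to ATF4, in a family of 14 partner pairs adjusted together. Slc7a3, the second arginine carrier, had r = 0.79 and rho = 0.80 (adjusted p = 9.33e-05), and 0.87 without HC6 replicate 3. Slc6a9, the glycine carrier, had r = 0.73 and rho = 0.69 (adjusted p = 0.00021). Slc38a2, the amino acid starvation-responsive member of system A, had r = 0.69 and rho = 0.65 (adjusted p = 0.000476), with 0.67 to 0.76 within slides. Slc3a2 had r = 0.64 and rho = 0.54 (adjusted p = 0.00114). The value was 0.46 without the 2 farthest pools, 0.52 without HC6 replicate 3 and 0.19 within slide 3. Slc1a5 had r = 0.57 and rho = 0.56 (adjusted p = 0.00776), and 0.43 without the 2 farthest pools.

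With replicate number means removed, and permutations made within replicate numbers over the same 14 pairs, the relation with Asns was 0.72 for Slc7a3 (adjusted p = 0.0028), 0.61 for Slc38a2 (adjusted p = 0.0174) and 0.59 for Slc6a9 (adjusted p = 0.0174). It no longer passed the test for Slc3a2, at 0.50 (adjusted p = 0.0702), or for Slc1a5, at 0.35 (adjusted p = 0.226). In Slc7a3 the relation was weakest within slide 2, at 0.41, and in Slc6a9 within slide 3, at 0.52.

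For Slc1a4 and Slc7a5 the relation with Asns did not pass the test. Slc1a4 had r = 0.03 (adjusted p = 0.908), with values between -0.29 and -0.22 under 4 other scalings, and Slc7a5 had r = 0.09 (adjusted p = 0.811). Both rest on 1 probe, the Slc1a4 probe being the repeat-holding one above, and the Slc7a5 signal was near background. Slc7a11, with a probe well above background on 1 array at most, was below the detection filter and was not tested. Of the 3 members whose promoter windows held the motif, only Slc7a7 and Slc1a4 had an r with Asns. That of Slc7a7 was 0.79, given without a test because this gene was not among the pairs chosen. With Slc7a11 unmeasured and Slc1a4 on a repeat-holding probe, these values cannot relate the motif to r.

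**Figure D4:**
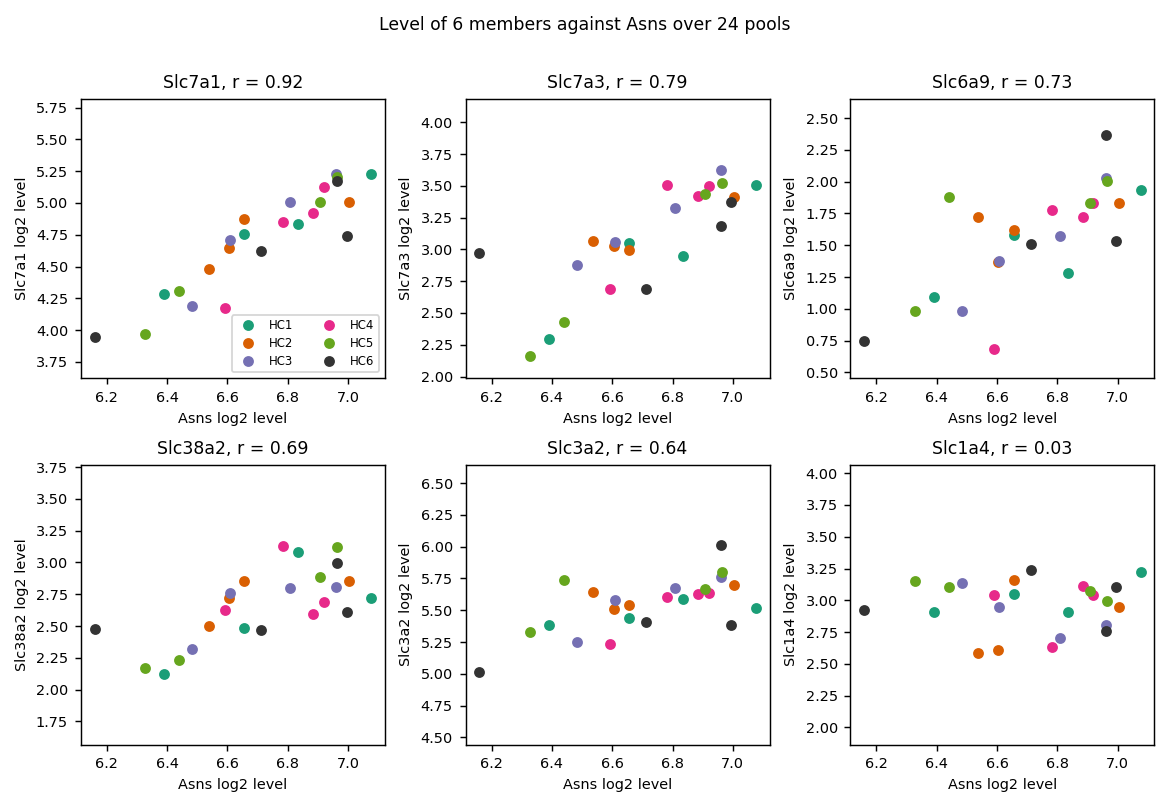
Log2 level of 6 members (y axes, each spanning 2.2 units) against that of Asns (x axis) in 24 pools, coloured by code, with Pearson's r. Slc7a1 follows Asns closely in every code, Slc3a2 more loosely, and Slc1a4 shows no trend.

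The relation of Slc3a2 with Asns differed between its probes. The probe in use averaged 5.54 and its second probe correlated with it at r = 0.71 and with Asns at r = 0.50. The third, which holds the run found in 50 promoters, correlated with the probe in use at r = -0.22 and with Asns at r = -0.41. For Slc38a2 the second probe, detected on 7 arrays, had r = 0.48 with Asns. Slc7a1, Slc7a3 and Slc6a9 had 1 probe each, and that of Slc6a9 is the one with a shared run.

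The relation extended beyond the chosen pairs. Among the 38 tested members, 12 had r over 0.6 with Asns, or 31.6%, against 700 of the 18396 tested genes other than Asns, members included, or 3.81%, and the median r was 0.21 in the members and 0.09 over all genes. These counts are a description: all the genes share the same 24 arrays and 5 of the 12 (Slc7a1, Slc7a3, Slc3a2, Slc38a2 and Slc6a9) were chosen as candidates. The others were Slc6a14 at 0.83, Slc7a7 at 0.79, Slc7a6 at 0.74, Slc38a4 at 0.72, Slc38a1 at 0.66, Slc43a2 at 0.64 and Slc1a1 at 0.64. Second probes gave 0.60 for Slc38a4 and 0.53 for Slc1a1, but 0.23 for Slc7a6 and 0.14 for Slc43a2, and the other 3 probes of Slc38a1 gave 0.54, 0.50 and 0.22. With replicate number means removed, 10 of the 38 members were over 0.6, all 10 among these 12, or 26.3%, against 4.11% of tested genes, and Slc6a9 and Slc3a2 were not. At the other end, Slc6a20a had r = -0.32 and Slc6a12 -0.23.

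Members with a like r did not vary by like amounts. A difference of 1 log2 unit in Asns went with 1.31 units in Slc7a3 and 1.26 in Slc6a9, against 0.42 in Slc38a4 and 0.31 in Slc38a1. Slc6a14, an importer of neutral and cationic amino acids, differed by 1.06 units per unit of Asns and ran from -0.05 in HC1 replicate 2 to 1.20 in HC5 replicate 2.

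**Figure D5:**
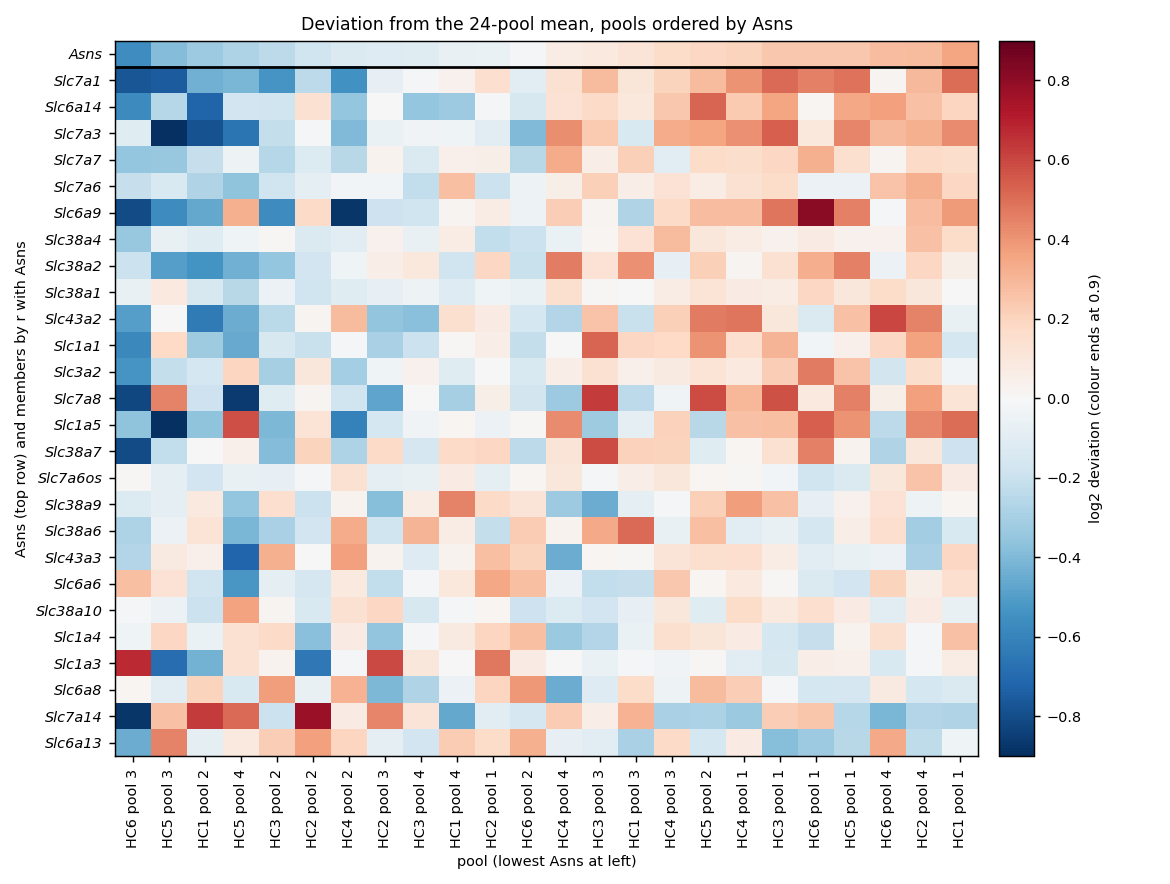
Deviation of Asns (top row) and of the 26 members detected on all 24 arrays from their 24-pool means on the log2 scale, with pools ordered from lowest to highest Asns and members from highest to lowest r with Asns. The upper rows change from blue to red along the pool order, which mixes all 6 codes, and the lower rows, such as Slc1a4 and Slc6a8, do not.

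Scores of some embryo lineages moved with Asns as well, while their single markers were mixed. The r of single trophectoderm markers ran from -0.21 to 0.73, with 3 of 9 over 0.6, against 3.81% of all tested genes. Primitive endoderm markers ran from -0.05 to 0.63, with 1 of 5 over 0.6, and inner cell mass markers from -0.43 to 0.45, with 0 of 6. Over 24 pools Asns correlated with the trophectoderm score at r = 0.65 and rho = 0.53 (adjusted permutation p = 0.00248 over 8 measures), 0.50 without HC6 replicate 3 and 0.47 to 0.95 within slides. With the primitive endoderm score it was r = 0.61 and rho = 0.56 (adjusted p = 0.00528), and 0.54 without the 2 farthest pools. With replicate number means removed, r was 0.74 for the trophectoderm score (adjusted p = 0.00304 from permutations within replicate numbers), and the primitive endoderm score no longer passed, at 0.49 (adjusted p = 0.152). The trophectoderm score ran from -0.41 to 0.10 in HC6, from -0.07 to 0.19 in HC5, from -0.07 to 0.10 in HC4, from -0.07 to 0.11 in HC3, from -0.12 to 0.11 in HC2 and from -0.06 to 0.17 in HC1. The inner cell mass score had r = -0.01 and the cumulus score -0.35 (adjusted p = 0.180). The log2 75th percentile of the array had 0.40 (adjusted p = 0.145, and 0.55 with adjusted p = 0.0462 once replicate number means were removed). The percent of spots above background had 0.10 (adjusted p = 0.739). Within slides 1, 2 and 3, the percentile gave 0.15, 0.35 and 0.80 and the percent of spots -0.19, -0.24 and 0.76. The part of lineage composition in the transporters' relation was not tested.

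Among heavy and light chains, Slc3a2 moved with Slc7a7, the y+L light chain that exports arginine in exchange for neutral amino acids. Their r was 0.76 and rho 0.71 over 24 pools (adjusted p = 7e-05), 0.71 without HC6 replicate 3, 0.65 with replicate number means removed (adjusted p = 0.00663), and 0.75, 0.90 and 0.42 within slides 1, 2 and 3. Slc3a2 ran from 5.01 in HC6 replicate 3 to 6.01 in HC6 replicate 1, and Slc7a7 from 4.42 in HC6 replicate 3 to 5.11 in HC4 replicate 4. Both genes therefore had HC6 replicate 3 as their lowest pool.

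The other light chains followed Slc3a2 less closely. Slc7a8 had r = 0.42 (adjusted p = 0.0619) and Slc7a10 r = 0.43 (adjusted p = 0.0619), with rho of 0.46 and 0.49 (adjusted p = 0.0383 and 0.0273). Both rested on few pools: without the 2 farthest in Slc3a2, r was 0.28 for Slc7a8 and 0.17 for Slc7a10. Within slide 3, Slc7a8 gave -0.46. Slc7a6 had r = 0.22 (adjusted p = 0.419) and Slc7a5 r = 0.14 (adjusted p = 0.652). Slc1a5 and Slc7a5, which can act as a pair in glutamine and leucine exchange, had r = -0.04 (adjusted p = 0.908).

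The amino acid response list held 21 genes, of which 20 were tested and 18 detected on all arrays. None passed the F-test or a code contrast, against 0% of all genes, and Vldlr, Ppp1r15a and Ddit4 had the smallest F-test p of the list. Its r with Asns was highest for Trib3 (0.89), Psat1 (0.88), Atf4 itself (0.88) and Psph (0.86). Of the list's 19 tested genes other than Asns, 7 (36.8%) were over 0.6, against 3.81% of all tested genes. The list's score was lowest in HC1 replicate 2 and HC6 replicate 3, both at -0.44, and highest in HC6 replicate 1, at 0.39.

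Of 36 genes for amino acid sensing and mTORC1, 35 were tested and 32 detected on all arrays. None was called, and 3 of 35 (8.57%) had r over 0.6 with Asns, against 3.81% of all tested genes. Of 20 other amino acid and peptide transporter genes, 14 were tested and 8 detected on all arrays. None was called, and 1 of 14 (7.14%) had r over 0.6, against the same share. Slc66a1, the lysosomal exporter of lysine and arginine, had the smallest F-test p of that list, and Fnip1, which acts with folliculin on the Rag GTPases, that of the sensing list.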

How the data were processed

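RNA of 24 pools was amplified from 2 ng per pool and labelled with Cy3, per the labels' protocols. The deposited intensity values were made with Agilent Feature Extraction 10.10.1.1, and limma is also named, per the submitters' processing notes. The processed intensity is background subtracted and not normalized between arrays, per the file headers. The authors' deposited table of log2 values (27101 probes, column medians 7.00 to 7.01) was used as an alternative. Its exact normalization is not given in the sources used here.

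Control and outlier spots were left out, and log2 processed signals were scaled to each array's 75th percentile. A probe was kept with a signal well above background on 4 or more arrays and at least 2 values per code, and the brightest probe stood for a gene. The 6 code means were estimated in a single limma fit with eBayes (limma 3.58.1, R 4.3.3), with Benjamini-Hochberg adjustment at 0.05 over 18397 genes. Correlations over pools used 100000 two-sided permutations. Tables were read with Python 3.11.15, numpy 2.4.6 and pandas 2.3.3, and figures drawn with matplotlib 3.10.9. The fit was tested on simulated data. The number of arrays limits the precision.

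Members are named with their detection, except 1 that enters the counts and is not reported here. Values are given for the 5 smallest F-test p, the smallest p each way in each code, the 5 largest and 5 smallest SD, the 3 smallest pair p, and genes picked for their role. The members and lists were chosen with earlier results of these data known. The search for shared runs, the relations of Asns with marker scores and with all genes, the motif and the removal of replicate number means were added after values were seen. Over all genes, same-numbered pools correlated at 0.017 on average in their deviations, against -0.0043 for other pools. Single pairs ran from -0.32 to 0.34, and 25 of 60 were over 0.1. An average over all genes cannot decide whether the numbers pair the pools for single genes, and Asns and Slc7a1 did differ by number.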

Additional observations from a re-analysis of the deposited data

Results flagged for a closer look

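In 10 of the 174 groups of 4 pools examined, 1 pool lay far from the other 3 by Dixon's ratio at 95%. About 1 group in 20 does so by chance. HC4 replicate 2 was low in 3 members, with Slc3a2 at 5.23, Slc6a9 at 0.68 and Slc7a3 at 2.69. HC4 replicate 4 was low in Slc1a4, at 2.63. HC5 replicate 4 was low in Slc38a1, at 4.00, and in Slc7a8, at 2.43, and HC5 replicate 2 was high in Slc6a8, at 7.13. HC2 replicate 1 was low in Slc36a2, at -3.13 and not well above background, HC1 replicate 2 in Slc7a6os, at 1.79, and HC3 replicate 2 in Slc38a2, at 2.32.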

How the results depend on the processing

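The counts of members called stayed at 0 in every alternative run: 4 other scalings, 2 filters, the mean of a gene's probes, slide as a fixed or random block, the replicate number as a block, array weights and each array left out. Over all genes, 1 gene (Zfp169) was called in HC5 with no filter on dim probes and 2 in HC4 with array weights (Fam167b and an unnamed feature). With 1 array left out, calls ranged from 0 to 1 in HC1, HC2 and HC5 and by the F-test, from 0 to 2 in HC4, and from 0 to 4 over the pairs. With the replicate block no gene was called (0), and the smallest adjusted p of a member contrast was 0.842648. Over all genes, 7 of 24 pools correlated best with their own number, which does not decide whether the numbers pair the pools. Differences of dim members shrank under normexp and in the authors' table: Slc7a10 in HC1 was -0.33 and -0.41, and Slc36a2 in HC2 0.41 and 0.44. Some differences changed sign: within slide 2, Slc6a12 in HC5 (-0.0497) and Slc6a6 in HC5 (0.0649), and within slide 1, Slc6a6 in HC6 (-0.13) and Slc7a14 in HC6 (0.22). The r of Asns and Slc3a2 was -0.413 with the repeat-holding probe. With replicate number means removed, the relations of Asns with Slc3a2 and Slc1a5 no longer passed the test. The causes were not tested. Probes near background, single-probe genes and 4 pools per code limit the members' values.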
